A study of Mus musculus with 3 samples.

Results

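Bone resorption requires the osteoclast, a multinucleated cell that forms when precursors of the monocyte and macrophage lineage fuse. The cytokine RANKL (Tnfsf11), made by stromal cells, osteoblasts, chondrocytes and activated T cells, binds its receptor RANK (Tnfrsf11a) on the precursor, and the secreted decoy receptor osteoprotegerin (Tnfrsf11b) blocks that contact. RANK signalling induces the transcription factor NFATc1 (Nfatc1), which drives the fusion proteins DC-STAMP (Dcstamp) and OC-STAMP (Ocstamp) and the resorption enzymes tartrate-resistant acid phosphatase (Acp5) and cathepsin K (Ctsk). These 8 genes, chosen by symbol from the 31053 genes measured, were followed in macrophages and stromal cells of subcutaneous implants in which bone morphogenetic protein induces heterotopic ossification, the formation of bone outside the skeleton.

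The implants were carried by female CD-1 mice aged 6 to 8 weeks and collected on day 5. Matrigel-only mice received Matrigel, a basement membrane gel, without rhBMP2 (recombinant human bone morphogenetic protein 2) and were given nothing by mouth. Vehicle mice received rhBMP2 in Matrigel and oral corn oil/DMSO, and Palo mice received rhBMP2 in Matrigel and oral palovarotene, an agonist of retinoic acid receptors, at 4 mg/kg. Dispase-released cells of each group made 1 droplet library, so no test between conditions was possible. The intervals below cover counting error only. Vehicle differs from Matrigel-only in both rhBMP2 and the oral solvent, and the effect of either cannot be told apart from that of the other or of the single library.

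The libraries held 9249 (Matrigel-only), 6065 (Vehicle) and 7905 (Palo) barcodes with 44252421, 46317250 and 46901673 unique molecular identifiers (UMIs, counted transcripts). Barcodes with 200 to 6000 genes and at most 5% mitochondrial UMIs were kept, 8728, 5478 and 7297 in all, of which 41 barcode sequences occurred in more than 1 library. Stromal cells were those in which the collagen and proteoglycan transcripts Col1a1, Col1a2, Col3a1, Dcn and Lum made up at least 1% of UMIs (2085, 1373 and 1184 cells). Macrophages had less than 1% and a UMI of Csf1r or Lyz2 (6437, 3581 and 5982 cells), and were divided by detection of Mmp12, a macrophage elastase (678, 390 and 982 cells with it). All 10 macrophage markers were detected in the macrophages of each library, and 97.3%, 96.4% and 98.5% of these cells held at least 2 of them. Vehicle macrophages also carried more transcripts of other types, with at least 2 stromal markers in 9.80% of cells against 2.75% in Matrigel-only and 2.47% in Palo. Stromal cells held at least 2 macrophage markers in 27.3%, 33.7% and 41.4% of cells in the same order. Levels are given as CPM, the UMIs of a gene scaled to a common total for all UMIs of its class, with the exact Poisson 95% interval. A lower class level can mean fewer cells with a transcript or fewer transcripts per cell, so shares of cells stand beside the levels.

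The upstream windows of the resorption enzymes are shown because both genes are textbook targets of NFATc1 and the comparison of the libraries turns on a few cells rich in both. Windows were taken from the RefSeq promoter table for 4 of the 8 genes (Tnfsf11, Tnfrsf11a, Acp5 and Ctsk). None is given for Tnfrsf11b, Dcstamp, Ocstamp or Nfatc1. Each window holds the 250 bases before an annotated start in GRCm38.p6 (mm10), 5′ to 3′ on the gene's strand. The Ctsk window lies at chr3:95498960-95499209 on the plus strand, and that of the most downstream of the 3 annotated Acp5 starts lies at chr9:22130599-22130848 on the minus strand. Capitals mark matches to 4 short motifs searched on both strands.
Ctsk: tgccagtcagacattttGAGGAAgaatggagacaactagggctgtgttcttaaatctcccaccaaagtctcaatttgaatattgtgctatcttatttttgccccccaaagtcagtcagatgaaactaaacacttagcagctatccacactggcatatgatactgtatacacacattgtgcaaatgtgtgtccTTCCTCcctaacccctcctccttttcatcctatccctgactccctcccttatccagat
Acp5: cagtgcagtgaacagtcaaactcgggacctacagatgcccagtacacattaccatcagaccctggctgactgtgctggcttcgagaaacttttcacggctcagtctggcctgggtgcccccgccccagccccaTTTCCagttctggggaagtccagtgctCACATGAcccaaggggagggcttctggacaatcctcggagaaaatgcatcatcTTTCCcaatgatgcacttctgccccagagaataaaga
The motifs were the NFAT core GGAAA, found in 55.6% of all 32841 such windows, PU.1 GAGGAA (23.3%), AP-1 TGANTCA (6.75%) and MITF TCANGTG (12.2%), and a PU.1 match followed by A also contains the NFAT core. The Ctsk window held PU.1 matches at positions -233 to -228 and -58 to -53 from the start and no match to the other motifs. The Acp5 window held NFAT core matches at -117 to -113 and -37 to -33 and a MITF match at -90 to -84. The other Acp5 starts and Tnfsf11 each held a single NFAT core match, and Tnfrsf11a held none of the motifs. A match is a description of letters, not a bound site, and the frequency of GGAAA in all windows is high.

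Which class of cells carried each gene was tested over the 3 libraries with edgeR's quasi-likelihood test, the library as a block and p-values adjusted over all 14493 genes tested. Macrophages and stromal cells differed in 60.2% of all genes, with 28.9% higher in macrophages and 31.3% lower. Against that background 7 of the 8 genes differed: Tnfrsf11a, Dcstamp, Ocstamp and Acp5 were higher in macrophages and Tnfsf11, Tnfrsf11b and Ctsk were higher in stromal cells. Only Nfatc1 did not pass (log2 difference 0.39, SE 0.26, adjusted p = 0.255). Of the 7 calls, those of Ocstamp, Acp5 and Ctsk were lost when 1 library was left out, for Ocstamp without Matrigel-only (adjusted p = 0.0568) and for the enzymes as given below with their levels.

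**Figure D1:**
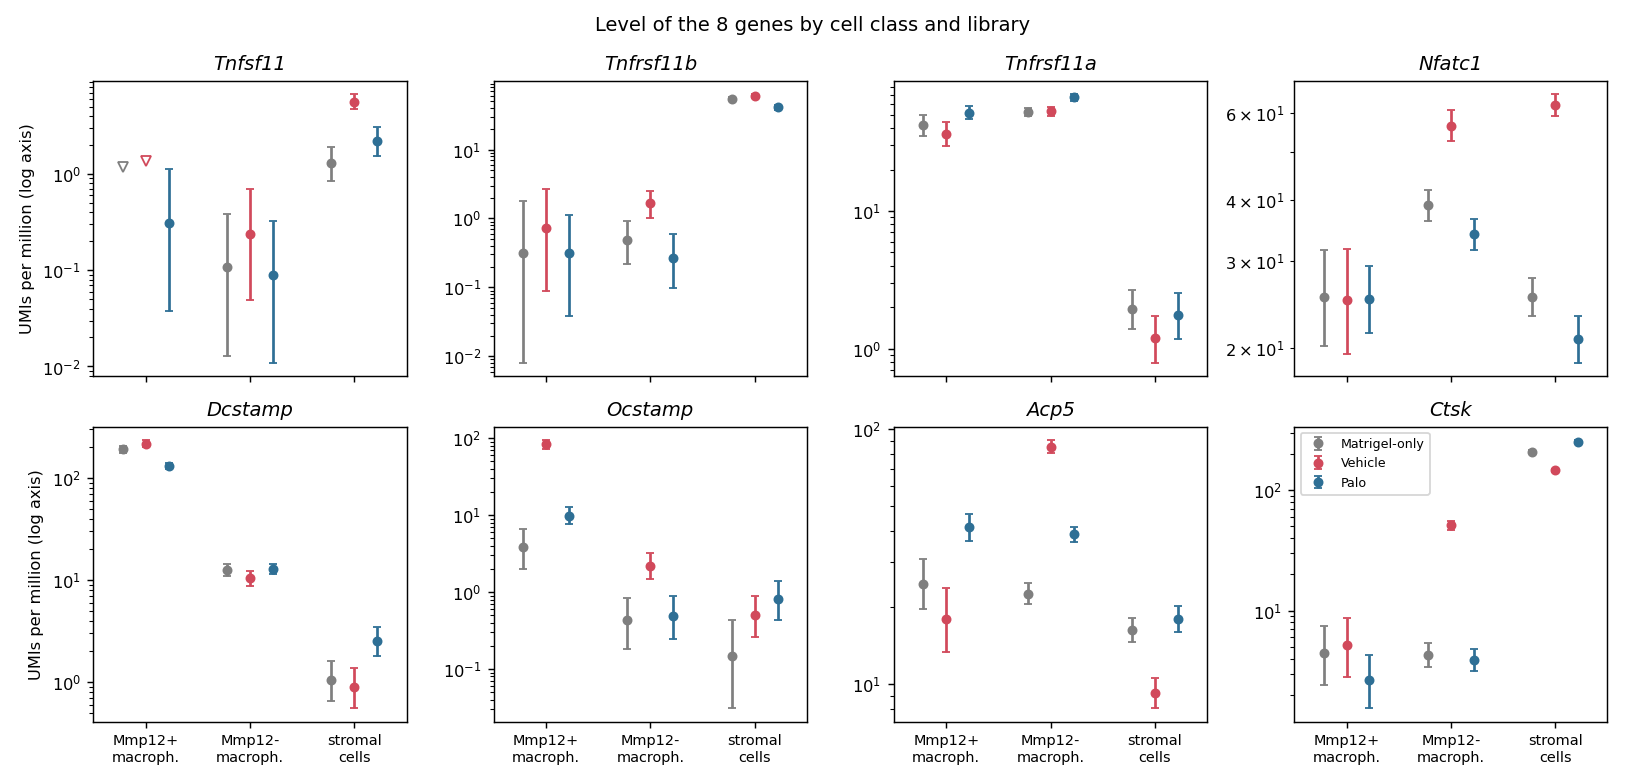
Level of each of the 8 genes as CPM on a log axis in macrophages with Mmp12, macrophages without Mmp12 and stromal cells of the 3 libraries, with exact Poisson 95% intervals. Open triangles mark the upper limit where no UMI was counted (Tnfsf11 in Mmp12+ macrophages of Matrigel-only and Vehicle). Ocstamp in Mmp12+ macrophages stands at 83.2 CPM in Vehicle against 3.81 in Matrigel-only and 9.85 in Palo.

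Tnfsf11, the ligand, was a rare transcript and most of its UMIs came from the stroma. Stromal cells held 1.30 CPM (95% interval 0.847 to 1.90) in Matrigel-only, 5.64 CPM (4.72 to 6.68) in Vehicle and 2.21 CPM (1.54 to 3.07) in Palo, from 26, 133 and 35 UMIs. Vehicle was the highest, and its interval did not overlap the others. The level was 4.35-fold higher in Vehicle than in Matrigel-only (log2 ratio 2.12, 95% interval 1.51 to 2.79) and lower in Palo than in Vehicle (log2 ratio -1.35, -1.93 to -0.80). Palo and Matrigel-only could not be separated at this depth (0.77, -0.00 to 1.56). After thinning every stromal cell to 3100 UMIs, which leaves out shallower cells, 0.340%, 1.67% and 0.570% of cells held the transcript in Matrigel-only, Vehicle and Palo (0.959%, 7.87% and 2.36% before thinning). The stroma gave 76.5%, 90.5% and 85.4% of all Tnfsf11 UMIs of kept cells, while macrophages gave 2, 3 and 4 UMIs. In the edgeR test Tnfsf11 was lower in macrophages than in stromal cells by a log2 difference of -4.12 (SE 0.43, adjusted p = 0.00170). Lymphocytes, another known source of RANKL, were few: cells with at least 2 T/NK marker genes, whether or not they also counted as macrophages, gave 2, 11 and 6 Tnfsf11 UMIs from 80, 286 and 65 cells. Their level was 13.1 CPM (1.58 to 47.2) in Matrigel-only, 12.8 CPM (6.37 to 22.8) in Vehicle and 33.0 CPM (12.1 to 71.7) in Palo, above the stroma of each library in point value, with overlapping intervals in Matrigel-only and Vehicle.

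Tnfrsf11b, the decoy receptor, was found almost wholly in stromal cells, which gave 99.1%, 98.2% and 98.8% of its UMIs in Matrigel-only, Vehicle and Palo. Its stromal level was 54.7 CPM (51.5 to 58.0) in Matrigel-only, 59.7 CPM (56.6 to 62.9) in Vehicle and 40.7 CPM (37.7 to 44.0) in Palo. The rhBMP2 library without drug was close to Matrigel-only (log2 ratio 0.13, 0.01 to 0.24), and Palo was the lowest (-0.55 against Vehicle, -0.69 to -0.42). About the same share of stromal cells held a UMI in each library, 26.0%, 26.4% and 26.2%, or 12.6%, 11.7% and 10.1% at 3100 UMIs per cell. In macrophages the gene was lower by a log2 difference of -6.24 (SE 0.38, adjusted p = 0.000460).

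Set against each other within the stroma, ligand and decoy gave 2.37 Tnfsf11 UMIs per 100 Tnfrsf11b UMIs (1.54 to 3.50) in Matrigel-only. Vehicle had 9.45 (7.85 to 11.3) and Palo 5.43 (3.75 to 7.63). The Vehicle ratio was the highest and its interval lay above the other 2. Both transcripts were seen together in 4, 22 and 6 stromal cells, out of 20, 108 and 28 cells with Tnfsf11. Few stromal cells held Tnfsf11 at all, while 542, 363 and 310 held Tnfrsf11b.

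The stroma was then divided into cells with at least 2 UMIs of the cartilage genes Acan and Col2a1, other cells with Pi16, a marker of adventitial fibroblasts, and the remaining stroma. Cells with cartilage transcripts numbered 729 of the 1373 stromal cells in Vehicle, 0 in Matrigel-only and 3 in Palo, so the make-up of the class differed between the libraries. In Vehicle Tnfrsf11b was concentrated in the cartilage-matrix cells (96.1 CPM), with 28.7 CPM in Pi16 cells and 11.6 CPM in the rest. In Matrigel-only it stood at 55.2 CPM in Pi16 cells and 54.1 CPM in the rest, and in Palo at 54.5 and 36.1 CPM. Outside cartilage-matrix cells, Tnfrsf11b was thus lower in Vehicle than in either other library, which the level over the whole stroma did not show.

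Tnfsf11 was not limited to cartilage-matrix cells. In Vehicle it measured 5.15 CPM in these cells, 4.38 CPM in Pi16 cells and 6.68 CPM in the remaining stroma. The remaining stroma held 2.06 CPM in Matrigel-only and 2.93 CPM in Palo, while Pi16 cells held 0.508 CPM in Matrigel-only and no UMI in Palo, where the upper limit was 0.889 CPM. In the remaining stroma there were 57.6 Tnfsf11 UMIs per 100 Tnfrsf11b UMIs in Vehicle (40.8 to 80.6), against 3.80 in Matrigel-only and 8.11 in Palo. In Vehicle cartilage-matrix cells the same ratio was 5.36 (4.13 to 6.86).

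**Figure D2:**
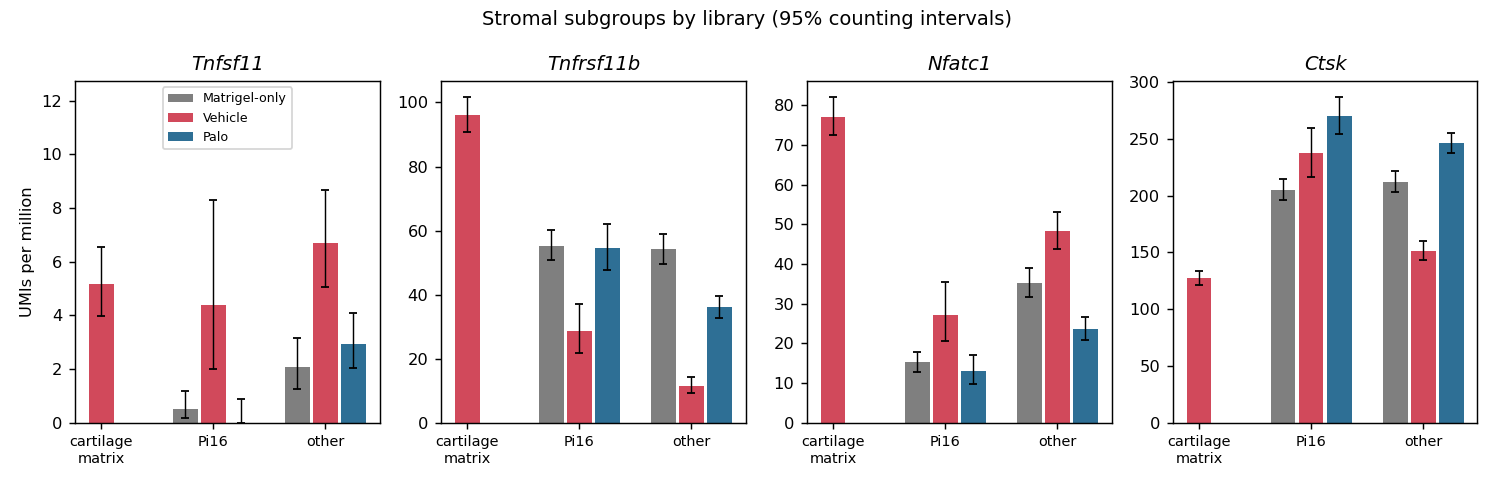
Level in CPM with exact Poisson 95% intervals of Tnfsf11, Tnfrsf11b, Nfatc1 and Ctsk in stromal cells with cartilage matrix transcripts, with Pi16 and without either, in each library. Cartilage-matrix cells are shown for Vehicle, where they numbered 729. Tnfrsf11b reaches 96.1 CPM in them and 11.6 CPM in the remaining Vehicle stroma.

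Tnfrsf11a, the receptor, was a macrophage transcript, with 95.6%, 95.2% and 98.2% of its UMIs in macrophages of Matrigel-only, Vehicle and Palo. Macrophages held 51.2 CPM (48.2 to 54.2), 50.4 CPM (46.9 to 54.1) and 63.5 CPM (60.7 to 66.5) in that order. Matrigel-only and Vehicle did not differ beyond counting error (log2 ratio -0.02, -0.16 to 0.11), and Palo was modestly higher than Vehicle (0.33, 0.21 to 0.46), while the median of all genes in that comparison was -0.18. The share of macrophages with a UMI was 15.0%, 17.3% and 24.3%, and 5.98%, 5.89% and 7.51% once each cell was thinned to 1200 UMIs, against 1.84%, 0.670% and 0.988% in T/NK-marker cells at the same depth. Tnfrsf11a was higher in macrophages than in stromal cells by 5.18 on the log2 scale (SE 0.18, adjusted p = 0.000239). The receptor was present in macrophages with Mmp12 (42.3, 36.5 and 51.7 CPM) and without it (52.6, 53.4 and 66.9 CPM), and the log2 difference of -0.26 between them (SE 0.09) did not pass (adjusted p = 0.0551). That p crossed the threshold under 5 alternative settings, with values from 0.0240 to 0.0452.

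Nfatc1, the transcription factor through which RANK acts, was found in both classes. Macrophages held 37.1 CPM (34.6 to 39.7) in Matrigel-only, 51.1 CPM (47.6 to 54.8) in Vehicle and 32.1 CPM (30.0 to 34.2) in Palo. Stromal cells held 25.4 CPM (23.2 to 27.7), 62.3 CPM (59.2 to 65.6) and 20.8 CPM (18.7 to 23.2). Vehicle was the highest in both classes, and the gap was wider in the stroma (log2 ratio over Matrigel-only 1.30, 1.15 to 1.44) than in macrophages (0.46, 0.32 to 0.61). Palo was lower than Vehicle by -1.58 in the stroma (-1.76 to -1.41) and -0.67 in macrophages (-0.81 to -0.53). In Vehicle stroma the cartilage-matrix cells held 77.1 CPM, Pi16 cells 27.2 CPM and the rest 48.3 CPM, against 35.2 CPM in the rest of Matrigel-only stroma and 23.6 CPM in that of Palo. The stroma thereby supplied 61.6% of all Nfatc1 UMIs in Vehicle, 37.7% in Matrigel-only and 26.1% in Palo.

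A macrophage reading of Nfatc1 is limited by its presence in lymphocytes, where NFAT factors also act. At 1200 UMIs per cell, 4.39%, 5.03% and 3.85% of macrophages held it, below the 10.4%, 15.8% and 9.19% of T/NK-marker cells. Vehicle macrophages carried more T/NK transcripts, with a summed marker level of 103 CPM against 11.2 and 11.6 CPM, and the part of these cells in the Nfatc1 level was not tested. In macrophages with Mmp12 the level was flat over the libraries at 25.4, 25.0 and 25.2 CPM. It was lower there than in macrophages without Mmp12 (log2 difference -0.57, SE 0.14, adjusted p = 0.0144 by edgeR), where 29.1% of the 12232 genes were called in either direction. The call was lost with no library block (adjusted p = 0.0914) and without Matrigel-only (0.0741).

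The fusion genes, in contrast, were concentrated in macrophages with Mmp12. Dcstamp, whose product macrophages need for fusion into osteoclasts and foreign-body giant cells, measured 191 CPM (176 to 207) in Mmp12+ macrophages of Matrigel-only, 218 CPM (201 to 236) in Vehicle and 131 CPM (122 to 140) in Palo. Macrophages without Mmp12 held 12.6, 10.4 and 12.9 CPM. Every Mmp12+ value was above every Mmp12- value, and the log2 difference was 3.99 (SE 0.21, adjusted p = 0.000115 by edgeR), in a comparison in which 15.1% of all genes were higher and 13.9% lower. At least 1 Dcstamp UMI was found in 42.0%, 42.1% and 40.3% of Mmp12+ cells, or 18.5%, 17.8% and 12.6% at 1200 UMIs. Dcstamp therefore marked this class of macrophage in implants with and without rhBMP2, with a small difference of Vehicle over Matrigel-only (log2 ratio 0.19, 0.03 to 0.36). Palo was lower than Vehicle by -0.74 (-0.89 to -0.58) and than Matrigel-only by -0.55.

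Ocstamp, which acts beside DC-STAMP in osteoclast fusion, had the same preference for Mmp12+ macrophages and a very different spread over the libraries. Mmp12+ macrophages held 3.81 CPM (1.97 to 6.66) in Matrigel-only, 83.2 CPM (72.7 to 94.8) in Vehicle and 9.85 CPM (7.57 to 12.6) in Palo, from 12, 226 and 63 UMIs. Vehicle was far above both others, and Palo lay above Matrigel-only. The log2 ratio was 4.45 for Vehicle over Matrigel-only (3.61 to 5.42), -3.08 for Palo over Vehicle (-3.51 to -2.67) and 1.37 for Palo over Matrigel-only (0.46 to 2.40). The log2 difference between macrophages with and without Mmp12 was 4.78 (SE 0.32, adjusted p = 1.17e-05). Without the library as a block this adjusted p was 0.0844.

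Ocstamp was confined to few cells. It was detected in 8 of 678 Mmp12+ cells of Matrigel-only, 61 of 390 of Vehicle and 31 of 982 of Palo, and at 1200 UMIs per cell in 0.321%, 5.28% and 0.935%. The 5 richest cells held 32.7% of its Mmp12+ UMIs in Vehicle and 46.0% in Palo. Of the Mmp12+ cells with Ocstamp, 6 of 8, 45 of 61 and 22 of 31 also held Dcstamp. The converse differed by library, since 2.11%, 27.4% and 5.56% of Mmp12+ cells with Dcstamp held Ocstamp. These cells were deeper than their class, with a median of 10429 UMIs against 6045 in Vehicle, so detection of both genes shares that depth.

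**Figure D3:**
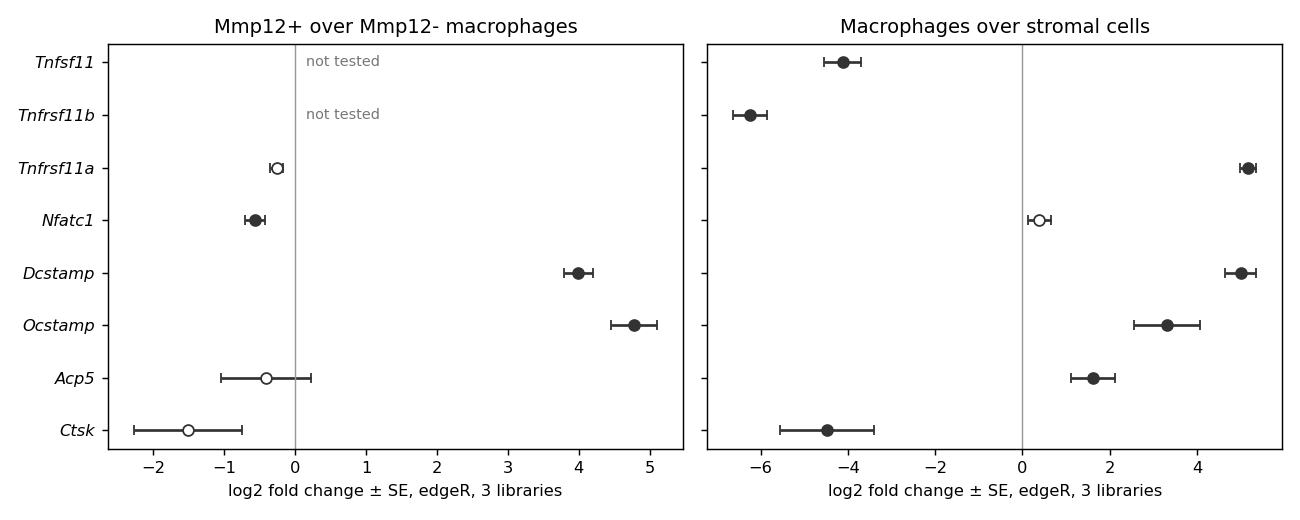
Log2 difference of each gene with its standard error in the edgeR fits over 3 libraries, for macrophages with Mmp12 over those without and for macrophages over stromal cells. Filled points have an adjusted p under 0.05. Dcstamp (3.99) and Ocstamp (4.78) stand apart in the Mmp12 comparison, in which Tnfsf11 and Tnfrsf11b were too low to be tested.

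The resorption enzymes showed no clear preference for Mmp12+ macrophages, unlike the fusion genes. In macrophages they were highest in Vehicle, unlike the receptor. Ocstamp was also highest in Vehicle over all macrophages (0.914, 16.5 and 2.59 CPM in Matrigel-only, Vehicle and Palo). Acp5 measured 23.0 CPM (21.0 to 25.1) in macrophages of Matrigel-only, 73.7 CPM (69.5 to 78.2) in Vehicle and 39.3 CPM (37.1 to 41.7) in Palo. Ctsk measured 4.34 CPM (3.51 to 5.31), 42.9 CPM (39.7 to 46.3) and 3.64 CPM (2.97 to 4.41) in the same macrophages. Vehicle was the highest for both, with log2 ratios over Matrigel-only of 1.68 (1.53 to 1.84) for Acp5 and 3.30 (2.99 to 3.63) for Ctsk. Palo was below Vehicle by -0.91 (-1.03 to -0.79) and -3.56 (-3.87 to -3.26). Neither gene passed the edgeR test with Mmp12 (Acp5 log2 difference -0.41, SE 0.64, adjusted p = 0.701, and Ctsk -1.51, SE 0.76, adjusted p = 0.239). Mmp12+ macrophages of Vehicle held only 18.0 CPM Acp5 and 5.16 CPM Ctsk, while their Ocstamp was at its highest.

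These Vehicle levels came from a handful of cells. A single Vehicle macrophage held both 154 Acp5 UMIs and 149 Ctsk UMIs, while no macrophage of the other libraries held more than 7 Acp5 or 3 Ctsk UMIs. With a limit set after the values were seen, at least 3 UMIs of each enzyme in a cell below 1% stromal transcripts, Vehicle had 16 such cells among 4105 (0.390%). Matrigel-only had 0 of 6643, which allows a share of up to 0.0452%, and Palo had 0 of 6113, which allows up to 0.0491%. Limits of 5 and 10 UMIs left 16 and 10 Vehicle cells and none in the other libraries, and a limit of 2 UMIs gave 1, 17 and 1. The 14 of the 16 cells that counted as macrophages supplied 82.5% of all Ctsk UMIs and 57.6% of all Acp5 UMIs of Vehicle macrophages.

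**Figure D4:**
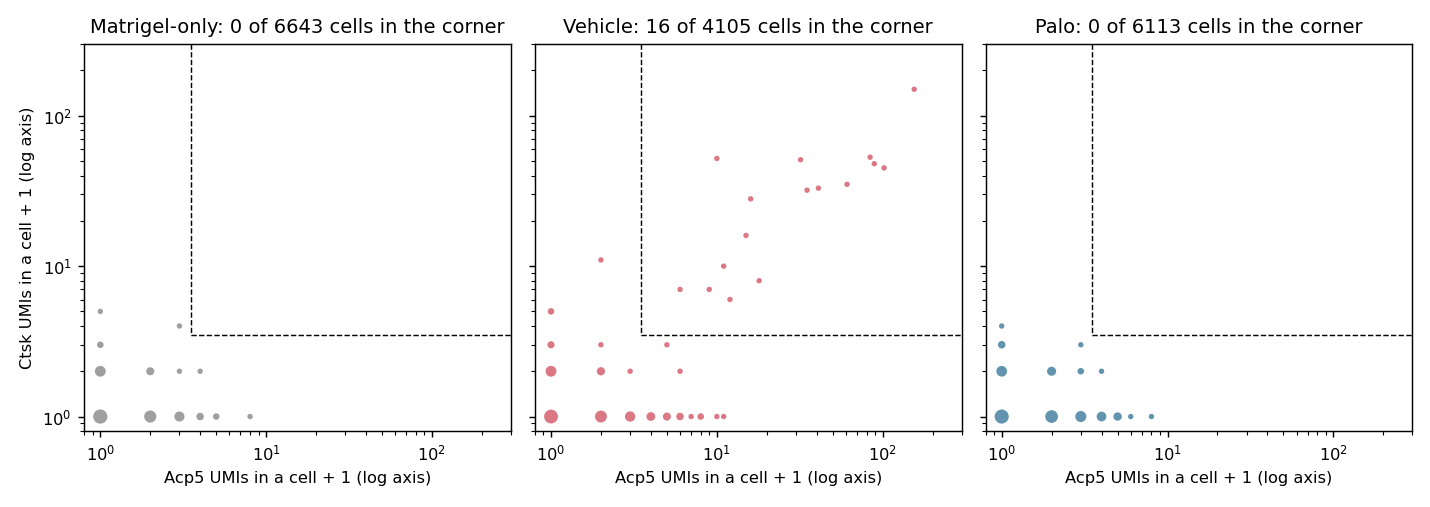
Acp5 against Ctsk UMIs in single cells below 1% stromal transcripts, 1 panel per library, with point size growing with the number of cells at a position. The dashed corner holds cells with at least 3 UMIs of each gene, 16 in Vehicle and 0 in the other libraries.

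In the 16 cells Acp5 ran from 5 to 154 UMIs with a median of 24, and Ctsk from 5 to 149 with a median of 31.5. They held further genes of resorption and of osteoclast identity that the limit did not use. Atp6v0d2, a proton pump subunit needed for osteoclast fusion, was seen in 13 cells at 649 CPM against 4.46 CPM in the other Vehicle macrophages. The collagenase Mmp9 (13 cells, 906 against 10.4 CPM), the osteoclast sodium-proton exchanger Slc9b2 (8 cells, 286 against 1.51 CPM) and the transcription factor Jdp2 (12 cells, 532 against 14.9 CPM) were likewise high. Nfatc1 stood at 684 CPM in 12 of the cells against 44.2 CPM, and the receptor Tnfrsf11a at 158 CPM in 9 cells against 49.2 CPM. At least 2 stromal markers were seen in 4 of the 16 cells (25%, against 9.80% of Vehicle macrophages). T/NK markers summed to 316 CPM against 103 CPM, and 1 cell held at least 2 of them. The part of mixed droplets in these values was not tested.

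The fusion genes were present in some of the same cells: Ocstamp in 7 at 87.7 CPM against 15.7 CPM, and Dcstamp in 7 at 58.4 CPM against 46.8 CPM. None held Mmp12, Tnfsf11 or Tnfrsf11b. Most tissue macrophage genes were low, with Lyz2 at 602 CPM against 8749 and the complement gene C1qa at 427 against 2389. Adgre1, which encodes F4/80, stood at 46.8 against 456, while the macrophage marker Cd68 was higher (871 against 419 CPM, 15 cells). Lyz2 was seen in 7 of the cells and C1qa in 4. A single cell held 81 of the 103 Lyz2 UMIs and 31 of the 73 C1qa UMIs, and another held 37 C1qa UMIs. Neither of these held Nfatc1 or Atp6v0d2. Csf1r, the receptor for the growth factor that macrophages and osteoclasts both need, was held by 14 cells at 608 CPM against 667. Of the defining osteoclast markers, Calcr and Siglec15 were at 0, Oscar was seen in 1 cell and Itgb3 in 5, so the marker set was incomplete at a median depth of 8453 UMIs per cell.

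By list, 10 of 15 resorption genes were at least 2-fold higher in the 16 cells than in the other Vehicle macrophages on the CPM + 5 scale (median log2 ratio 1.48), where 12% of all 9497 genes were. Transcriptional repressors of osteoclast formation were lower in 5 of 6 cases (median -1.79, against 20.2% of all genes), among them Irf8 (23.4 against 247 CPM). Most other lists also had more lower than higher genes: cell fusion 5 lower and 2 higher of 9 (median -1.01), RANK signalling 7 and 2 of 19 (-0.81), costimulation 3 and 0 of 9 (-0.59) and cues 7 and 1 of 10 (-2.06), while activators had 1 lower and 3 higher of 9 (-0.56). These values describe cells picked by 2 of the genes and come from 1 library. The RANK signalling, costimulation and cue lists hold promoting and inhibiting genes together, so their counts give no direction for osteoclast formation.

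Without the 14 cells, the Acp5 and Ctsk differences shrank and in part turned. The cells were picked for both genes and lay in Vehicle alone, so leaving them out had to lower these Vehicle levels. The log2 ratio of Vehicle over Matrigel-only in macrophages became 0.46 for Acp5 (0.28 to 0.64) and 0.81 for Ctsk (0.40 to 1.22), and Palo was above Vehicle for Acp5 (0.32, 0.16 to 0.47) and below it for Ctsk (-1.06). Ocstamp (4.10 and -2.60), Dcstamp (0.29 and -0.25) and Tnfrsf11a (-0.06 and 0.37) hardly moved. Nfatc1, of whose Vehicle macrophage UMIs the 14 cells held 14.5%, went to 0.25 (0.10 to 0.40) and -0.46 (-0.61 to -0.32). The remaining Ctsk of Vehicle macrophages was 7.61 CPM, in a class in which 9.80% of cells held at least 2 stromal markers, and the part of stromal RNA in it was not tested. At 1200 UMIs per cell, Acp5 was seen in 2.86%, 3.80% and 4.71% of macrophages and in 1.53%, 9.91% and 5.40% of T/NK-marker cells, so in Vehicle and Palo the share in macrophages was not above that class.

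In the stroma both enzymes were lowest in Vehicle. Ctsk, which fibroblasts also use to degrade collagen within the cell, measured 209 CPM (202 to 215) in Matrigel-only, 146 CPM (141 to 151) in Vehicle and 253 CPM (245 to 261) in Palo. Vehicle was the lowest (log2 ratio over Matrigel-only -0.52, -0.58 to -0.45) and Palo the highest (0.79 over Vehicle, 0.73 to 0.86). At 3100 UMIs per cell 44.2%, 35.4% and 49.8% of stromal cells held it. Within Vehicle, cartilage-matrix cells had 128 CPM, Pi16 cells 237 CPM and the rest 151 CPM, next to 212 CPM in the rest of Matrigel-only stroma and 246 CPM in that of Palo. The stroma gave 97.6%, 83.3% and 97.4% of Ctsk UMIs, and macrophages were lower by a log2 difference of -4.47 (SE 1.07, adjusted p = 0.0220).

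Stromal Acp5 was 16.3 CPM in Matrigel-only, 9.20 CPM in Vehicle and 18.0 CPM in Palo, from 327, 217 and 285 UMIs. Palo and Matrigel-only were both above Vehicle (log2 ratio over Matrigel-only -0.83, -1.08 to -0.57, and for Palo over Vehicle 0.97, 0.71 to 1.23). The macrophage excess of Acp5 over the stroma was 1.62 on the log2 scale (SE 0.51, adjusted p = 0.0470), a call lost without the Palo library (adjusted p = 0.173). The Ctsk call was lost without Matrigel-only (0.0980) and without Palo (0.124). Macrophage-marker transcripts in the stroma summed to 922, 300 and 762 CPM in the same order, also lowest in Vehicle, and their part in the Acp5 level was not tested. The Dcstamp UMIs in Palo stroma (40, against 21 in each other library) lay in 18 cells of a class in which 41.4% held at least 2 macrophage markers.

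**Figure D5:**
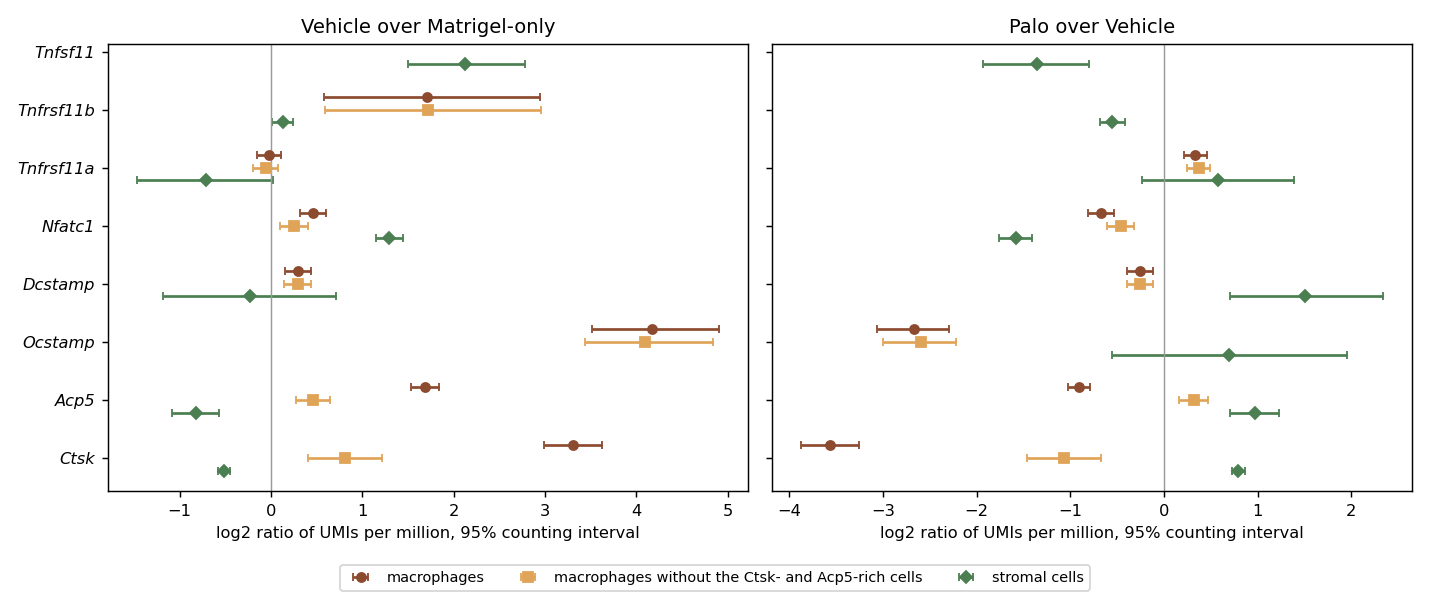
Log2 ratio of CPM with its 95% interval for each gene, Vehicle over Matrigel-only and Palo over Vehicle. Points are macrophages, macrophages without the cells rich in Acp5 and Ctsk, and stromal cells. Both comparisons share the Vehicle library, and values resting on under 10 UMIs in either library are not drawn. In Vehicle over Matrigel-only, Acp5 and Ctsk lie at 1.68 and 3.30 in macrophages and at 0.46 and 0.81 without the rich cells. They lie below 0 in stromal cells (-0.83 and -0.52).

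Counted together, 6 of the 8 genes had a mean of at least 5 CPM in macrophages, and 3 of them (Ocstamp, Acp5 and Ctsk) were at least 2-fold higher in Vehicle than in Matrigel-only, where 4.17% of all genes were (6.39% past 2-fold in either direction). Without the cells rich in both enzymes only Ocstamp was. In Matrigel-only and Palo, Ocstamp (0.914 and 2.59 CPM) and Ctsk (4.34 and 3.64 CPM) were below 5 CPM. They passed the minimum through Vehicle alone, so their place in these counts follows in part from the minimum. Between Palo and Vehicle, Ocstamp and Ctsk were at least 2-fold lower, as were 5.08% of all genes (6.85% in either direction), and none was past 2-fold higher (1.77%). Between Palo and Matrigel-only, Ocstamp alone was at least 2-fold higher (0.895% of all genes). In the stroma 4 genes passed the minimum, of which Nfatc1 was at least 2-fold higher in Vehicle than in Matrigel-only (4.55% of all genes) and at least 2-fold lower in Palo than in Vehicle (4.6%). Single macrophages rarely held the whole programme. Of the 6 genes other than ligand and decoy, none was seen in 65.5%, 59.6% and 50.1% of macrophages, at least 5 were seen in 8 Vehicle cells and in none of the other libraries, and all 6 in 2. These shares were not thinned, and the median depth of macrophages rose in the same order (3001, 3512 and 4218.5 UMIs). The part of depth in them was not tested. The 8 cells with at least 5 of the genes were all among those rich in Acp5 and Ctsk, which were picked by 2 of the 6 genes.

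The genes around the axis were read from lists. Of 20 genes of RANK signalling (TRAF adaptors, NF-κB and AP-1 subunits and their inhibitors), 0 of the 19 that passed the minimum were past 2-fold in macrophages between Vehicle and Matrigel-only or between Palo and Vehicle (median log2 ratios 0.04 and -0.25, all genes 0.01 and -0.18). Of all genes, 6.39% and 6.85% were past 2-fold in these comparisons. The NF-κB precursor genes Nfkb2 (67.3 against 44.3 CPM, log2 ratio 0.61) and Nfkb1 (164 against 111 CPM, 0.56) had the widest gaps of Vehicle over Matrigel-only. Palo was below Vehicle for Nfkb2 (-0.90) and for Traf3 (-0.95), which restrains the alternative NF-κB pathway. In Mmp12+ over Mmp12- macrophages, 3 of the 20 rose and 2 fell in the edgeR test, a share near the 29.1% of all genes called, among them Tnfaip3, an inhibitor of NF-κB, by 1.41 (adjusted p = 0.000636).

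Genes of immunoreceptor costimulation for NFATc1, a list that also held the inhibitory receptors Lilrb4a and Pirb, were macrophage genes. Counts over this list therefore give no direction of costimulation. All 10 tested were higher than in stromal cells, as were 28.9% of all genes. With Mmp12, 6 of 10 were higher and 0 lower (median 0.42, all genes -0.02), among them Lilrb4a (0.96), Plcg2 (0.69) and Syk (0.54). Of all genes, 15.1% were higher with Mmp12 and 13.9% lower. Between libraries, Trem2 in macrophages was past 2-fold for Palo over Vehicle (363 against 173 CPM, log2 ratio 1.07), the sole one of 9 genes in either direction. In that comparison 1.77% of all genes were at least 2-fold higher and 5.08% at least 2-fold lower.

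Of 9 activators of osteoclast transcription, 4 rose and 2 fell with Mmp12, where 15.1% of all genes rose and 13.9% fell. Those that fell were Tfec (-2.14), a relative of MITF, and Mef2c (-1.19). Over all macrophages Tfec was also the sole activator past 2-fold between libraries, at 57.1 CPM in Vehicle macrophages against 27.9 in Matrigel-only (log2 ratio 1.03) and 16.9 in Palo (-1.76 for Palo over Vehicle). Of all genes, 4.17% were at least 2-fold higher in Vehicle than in Matrigel-only and 5.08% lower in Palo than in Vehicle. Of 6 repressors, 2 fell and 3 rose with Mmp12, among the former Irf8 (adjusted p = 1.32e-05), while 0 of 6 were past 2-fold between libraries in macrophages.

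The list of cell fusion genes, which left out Dcstamp and Ocstamp, resembled that pair only in part. With Mmp12, 6 of 10 other fusion genes rose and 1 fell (median 0.62), where 15.1% of all genes rose and 13.9% fell. The rise was led by the metalloprotease Adam8 (1.86) and the integrin subunit Itgb2 (1.29), with Adam12 lower (-2.33). In Vehicle over Matrigel-only macrophages 3 of 9 were past 2-fold higher, where 4.17% of all genes were. These were the tetraspanin Cd9 (152 against 30.6 CPM, 2.31), Atp6v0d2 (1.78) and Adam8 (1.26). Palo was past 2-fold below Vehicle for Cd9 (-1.20) and Atp6v0d2 (-1.15), as it was for 5.08% of all genes. Without the cells rich in Acp5 and Ctsk, Atp6v0d2 was at 4.46 CPM in Vehicle macrophages (log2 ratio 0.44 over Matrigel-only, -0.06 to 0.94, and 0.19 for Palo over Vehicle, -0.24 to 0.62), below the minimum for the count, and 2 of the 8 fusion genes left were past 2-fold higher in Vehicle. Of the same 8, 3 were past 2-fold lower in Palo than in Vehicle.

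Of the other resorption genes, 1 rose and 5 fell with Mmp12 among 15 tested, where 15.1% of all genes rose and 13.9% fell. Among those that fell were Mmp9 (-2.18), the carbonic anhydrase Car2 (-1.94) and Ctsb (-0.93). Between Vehicle and Matrigel-only macrophages, 4 of 14 were past 2-fold higher, including the membrane collagenase Mmp14 (145 against 8.27 CPM, 4.14), the kinase Src (15.0 against 2.06 CPM, 2.86) and the integrin subunit Itgb3 (11.6 against 1.83 CPM, 2.67), and 4 were past 2-fold lower in Palo than in Vehicle. Of all genes, 4.17% were at least 2-fold higher in Vehicle and 5.08% at least 2-fold lower in Palo. Src and Itgb3 were also low in Palo (1.43 and 3.01 CPM) and passed the minimum of 5 CPM through Vehicle alone. Their place in both counts follows in part from that minimum. Mmp14 (-4.62) and Src (-2.85) were lower in macrophages than in stromal cells, and the part of stromal RNA in their Vehicle levels was not tested. Without the cells rich in both enzymes, 4 of the 14 were higher and 1 lower in Vehicle, and 3 were lower in Palo.

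A list of 21 genes of stromal and inflammatory cues for osteoclasts held ligands, receptors and inhibitors together. Of these, 12 were lower and 7 higher in macrophages than in stromal cells (31.3% and 28.9% of all genes). Among those higher in the stroma were Wnt5a (-6.47), and Wnt16 (-6.81) and Sfrp1 (-6.38), both described as inhibitors of osteoclast formation. In the stroma the vitamin D receptor Vdr was at 23.7 CPM in Vehicle against 2.84 in Matrigel-only (log2 ratio 3.06) and 3.66 in Palo, and the parathyroid hormone receptor Pth1r, found in growth-plate cartilage and osteoblasts, at 211 against 41.2 CPM (2.36). Both receptors mediate hormone signals that raise RANKL, and their part in the Tnfsf11 level was not tested. Stromal Vdr passed the minimum of 5 CPM through Vehicle alone. Vdr was not particular to the stroma, with 9.97 CPM in macrophages of Matrigel-only, 25.0 in Vehicle and 8.75 in Palo. It was higher in macrophages with Mmp12 (log2 difference 3.08, adjusted p = 1.6e-06 by edgeR). Il34, an alternative ligand of CSF1R, went the other way, with 23.9 CPM in stroma of Matrigel-only, 2.42 CPM in that of Vehicle and 26.6 CPM in that of Palo. In macrophages the inflammatory cytokine Il1b was at 211 CPM in Vehicle against 57.5 in Matrigel-only and 67.0 in Palo.

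The genes whose levels ran most like each of the 8 were ranked by Pearson's r of log2(CPM + 1) over the 9 sums of 3 libraries and 3 classes, which share libraries and depth. Tnfrsf11a ran closest to Lcp2, Hcst and Ly86, 3 genes of leukocytes. Dcstamp ran closest to Dpys (0.99), Mcub (0.99) and Meaf6 (0.98), and Ocstamp to H2-M2 (0.97), Pigx (0.97) and Nrd1 (0.94). Tnfrsf11b ran with Epb41l3, Armcx1 and Adamts12, and Ctsk with Chst1, Igfbp3 (0.99 each) and Tm4sf1 (0.98). Acp5 (Slc52a2, 0.93) and Nfatc1 (Acadl, 0.92) had looser neighbours. The closest to Tnfsf11 was Fzd5 (0.99), with Tnfsf11 itself at or below 5.64 CPM in these sums.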

How the data were processed

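Droplet single-cell RNA was measured in 3 libraries, 1 each of Matrigel-only, Vehicle and Palo implants. The values are raw UMI counts per gene and barcode that the authors deposited as sparse matrices. The submitters' processing notes name Cell Ranger 3.0.2, Seurat 3 and mm10. The files were used as deposited, with 31053 genes and 35 repeated symbols, and no doublet caller was run beyond the limit of 6000 genes.

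The 8 genes, the lists and the comparisons were chosen with earlier results of these data known. Barcodes with 200 to 6000 genes and at most 5% mitochondrial UMIs were kept. Levels are summed UMIs per class as CPM with exact Poisson 95% intervals, ratios carry conditional binomial intervals and shares exact binomial intervals. A share at one depth is the expected share after drawing 1200 UMIs (macrophages) or 3100 UMIs (stromal cells) per cell, leaving out 598, 281 and 164 macrophages and 207, 70 and 54 stromal cells of Matrigel-only, Vehicle and Palo. Genes needed a mean of 5 CPM to enter 2-fold counts.

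Differences between cell classes were tested on summed counts with edgeR 4.0.16 (quasi-likelihood, trimmed-mean normalization, library as a block, Benjamini-Hochberg adjustment over all genes) in R 4.3.3, and with DESeq2 1.42.0 as an alternative. The 3 libraries differ in condition and come from pooled masses, so these p-values measure the spread of a class difference over 3 conditions. The replicate number in each group is 1, and the block pairs the classes of the same library. The script was tested on simulated data. Named genes were the 8 genes, the 3 genes of each list with the widest called difference or CPM ratio, and the 3 closest in pattern, with some left out for length and 1 not reported here. The cells rich in Acp5 and Ctsk were chosen after their values were seen. Alternatives were other normalizations and filters, other class and mitochondrial limits, leaving out a library, a mean over cells, other fold limits and leaving out the rich cells. Other steps used Python 3.11.15, numpy 2.4.6, pandas 2.3.3, scipy 1.17.1 and matplotlib 3.10.9. No files or samples were left out.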

Additional observations from a re-analysis of the deposited data

Results flagged for a closer look

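Several genes moved in opposite directions in 2 classes of the same libraries. The differences between classes are differences of log2 CPM ratios, each from 1 library per condition, and were not tested. For Ctsk, Vehicle over Matrigel-only was 3.30 in macrophages and -0.52 in stromal cells, a difference of 3.82, and Palo over Vehicle was -3.56 and 0.79, a difference of -4.35. For Acp5 the corresponding ratios were 1.68 and -0.83 (difference 2.51) and -0.91 and 0.97 (difference -1.88). Without the cells rich in Acp5 and Ctsk the macrophage ratios of Acp5 were 0.46 and 0.32, the latter of the same sign as in the stroma, and those of Ctsk 0.81 and -1.06. Acp5 also differed within macrophages, where Palo over Vehicle was 1.19 with Mmp12 and -1.14 without it (difference 2.34), the latter 0.17 once the cells rich in Acp5 and Ctsk were left out. For Dcstamp, Palo over Vehicle was -0.26 in macrophages and 1.5 in stromal cells (difference -1.76). The macrophage value lay near the median of all genes (-0.18) and was -0.04 with trimmed-mean normalization between libraries. The stromal value came from 40 and 21 UMIs and was 0.44 without stromal cells mixed with macrophage transcripts. Dcstamp was also -0.74 with Mmp12 and 0.31 without it (difference -1.05). The latter had an interval of 0.009 to 0.62 and was 0.004 with a mitochondrial limit of 10%.

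Barcodes above the mitochondrial limit of 5%, left out of the main comparisons of levels, also held cells rich in both resorption enzymes. In Vehicle 11 such barcodes had at least 3 UMIs of Acp5 and of Ctsk, 10 of them among the 265 barcodes with more than 5% and at most 10% mitochondrial UMIs (3.77%), while Matrigel-only and Palo had 0. Together with the 16 kept cells this made 27, of which 22 held Atp6v0d2, 22 Mmp9, 22 Nfatc1, 19 Tnfrsf11a, 14 Ocstamp and 14 Dcstamp. The highest single values were 436 Ctsk UMIs and 303 Acp5 UMIs. With a limit of 10%, the macrophage log2 ratio of Vehicle over Matrigel-only rose from 1.68 to 2.62 for Acp5 and from 3.30 to 4.70 for Ctsk. Palo over Vehicle went from -0.91 to -1.84 for Acp5 and from -3.56 to -5.00 for Ctsk.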

How the results depend on the processing

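With 1 library per condition, the contrasts between conditions carry counting error only, and leaving out a library bears on the class comparisons alone. The count of genes that differed with Mmp12 was 3555 and fell to 817 with no replicate block, and ran from 1740 to 4385 when 1 library was left out. Between macrophages and stromal cells 8726 genes differed, 7852 with no replicate block and 5089 to 9656 with 1 library left out. Both counts were lowest without Palo and highest without Vehicle. No pairing of replicates across conditions exists, since each has 1.

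The number of the 8 genes past 2-fold in either direction in macrophages of Vehicle over Matrigel-only was 3, and it was 1 without the cells rich in Acp5 and Ctsk and 5 with no minimum beyond 1 UMI. For Palo over Vehicle 2 became 1 with a mean over cells and 4 with a fold limit of 1.5. In the stroma 1 became 2 with a fold limit of 1.5 or a minimum of 1 CPM and 3 with no minimum for Vehicle over Matrigel-only, and 3 under each of these for Palo over Vehicle. Among the edgeR differences and the ratios whose own interval left out 0, directions turned in 4 cases, and some ratios whose interval held 0, among them Dcstamp and Tnfrsf11a in the stroma, also changed sign. Acp5 with Mmp12 was 0.25 without Vehicle (-0.90 without Palo), Dcstamp in macrophages of Vehicle over Matrigel-only was -0.060 as a mean over cells, and Acp5 of Palo over Vehicle without the rich cells was 0.32 in macrophages and 0.17 in those without Mmp12.

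Calls of single genes also moved. With no replicate block, Ocstamp (adjusted p = 0.0844) and Nfatc1 (0.0914) lost their call with Mmp12 under edgeR, and Nfatc1 also lost it without Matrigel-only (0.0741). Ocstamp lost its call over the stroma without Matrigel-only (0.0568). With a mitochondrial limit of 10%, Acp5 (0.0820) and Ctsk (0.0743) lost theirs, and Nfatc1 was called without Vehicle (log2 difference 0.74, adjusted p = 0.00151). Of the calls of the 8 genes, 1 was also lost with the size factors of DESeq2 in edgeR, and 1 with no filter on low genes. The causes were not tested. Of 182 tests of the 8 genes under alternatives 164 kept their direction and side of the threshold, and of 597 ratios 526 moved by less than their counting error.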
